A study of Homo sapiens with 2 samples.

Results

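Genes for the enzymes that modify and cross-link collagen were examined in HGC-27, an established human cell line that came from a gastric cancer classed as undifferentiated. The group was chosen by gene name and holds 10 genes: LOX, LOXL1, LOXL2, LOXL3, LOXL4, P4HA1, P4HA2, P4HA3, PLOD1 and PLOD2. Each of the 10 stood on 1 entry of the deposited table, which holds 56544 named genes. There were 2 libraries, 1 from cells given a control peptide (Ctrl) and 1 from cells given a peptide that the sample titles call SOS and the series title calls SHAP. Both peptides were delivered in micelles made of PDPA, and both cultures were treated for 48 h. The cells were the same line in both groups, grown in RPMI medium with serum.

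With 1 library per group, no value has an error, no difference has a replicate check, and no test was made. Every comparison describes these 2 libraries. Levels are given as deposited FPKM, by its name fragments per kilobase scaled to the library. Orders, shares and quotients between genes within 1 library hold only if the values are scaled to gene length, which rests on the column names. Directions follow the column names of the FPKM. The authors' own log2 ratio had the sign of Ctrl over SOS in 229 of 230 genes that differed at least 2-fold by FPKM and stood at 5 FPKM or more in both libraries. If the column names were exchanged, every direction given here would turn. RNA was taken from whole cultures, so a change in the share of cells of 1 state and a change in RNA per cell cannot be told apart.

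Collagen chains are modified in the endoplasmic reticulum before they fold into a triple helix. Prolyl 4-hydroxylase, made of a catalytic alpha subunit (P4HA1, P4HA2 or P4HA3) and the beta subunit P4HB, hydroxylates prolines and makes the helix stable at body temperature. Lysyl hydroxylases (PLOD1, PLOD2 and PLOD3) hydroxylate lysines, and PLOD2 acts on the telopeptides at the ends of the chains. Outside the cell, the copper-dependent lysyl oxidases (LOX and LOXL1 to LOXL4) oxidise lysines and hydroxylysines, which then form the covalent cross-links of collagen and elastin fibres. Both groups of hydroxylases need iron, oxygen, 2-oxoglutarate and vitamin C. Several of these genes, among them P4HA1, P4HA2, PLOD2, LOX and LOXL2, are known from other cells as targets of the hypoxia-inducible factors (HIF).

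The labelled cell type was checked against its markers. Of 7 epithelial markers only MUC1 reached 1 FPKM, at 3.77 and 6.08. CDH1, the epithelial cadherin, and the keratin KRT18 were listed at 0 in Ctrl and at 0.0160 and 0.0660 in SOS. All 10 fibroblast and stromal markers were at 1 FPKM or more, summing to 886 in Ctrl and 1262 in SOS. Most of this sum was COL3A1 (331 and 437) and COL1A1 (209.7 and 379), which are also counted among the collagen genes below. DCN, a matrix proteoglycan, stood at 123 and 165, POSTN, a matricellular protein, at 27.961 and 61.286, and the receptor PDGFRA at 4.24 and 8.09, while THY1 at 75.1 and 54.9 and ACTA2 at 20.2 and 8.24 were lower in SOS. This list summed to more in SOS, the library in which LOX and the P4HA subunits were also higher, and its part in that result was not tested. The defining leukocyte genes PTPRC and CD3E were at 0.0410 or below, and the 4 endothelial markers summed to 0.0160 or below.

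The enzyme genes formed a set that was about 1.86-fold to 3.01-fold higher in the SOS library and a set that was nearly level. LOX, LOXL2, P4HA1, P4HA2 and PLOD2 made up the higher set. LOXL1, PLOD1 and LOXL3 differed between 1.05-fold lower and 1.16-fold higher, and LOXL4 and P4HA3 were close to 0. The size of a difference was taken as log2((SOS FPKM + 1)/(Ctrl FPKM + 1)), which understates differences of low genes, in genes that reached 1 FPKM in at least 1 of the libraries. Of the 10 genes, 8 passed this minimum, and 3 of these 8 (LOX, LOXL2 and P4HA1) had a log2 ratio of 1 or more, that is, were higher in SOS. None had a log2 ratio of -1 or less. This limit of 1 is called the size rule. Among all 14288 genes that passed the minimum, 3.74% were higher by this size and 1.64% were lower. The median ratio of the 8 enzyme genes was 0.92, beside -0.05 for all genes. At like levels, 10 to 100 FPKM in Ctrl, 3 of 7 enzyme genes were higher by this size, beside 0.973% of 5963 genes.

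**Figure D1:**
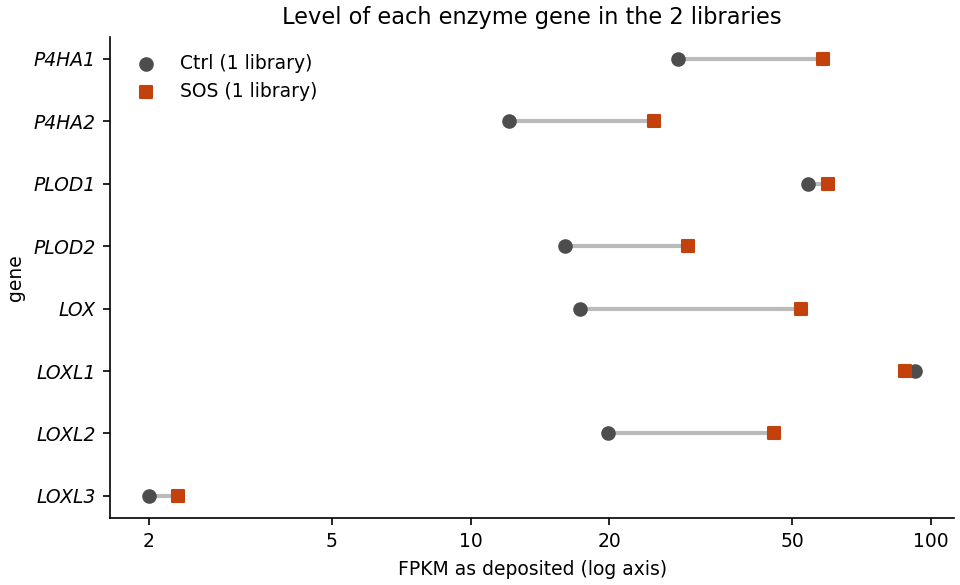
FPKM of the 8 measured enzyme genes in the Ctrl library (grey circles) and the SOS library (orange squares), on a log axis, with a line joining the 2 values of each gene and no error bars because each group had 1 library. LOX, LOXL2, P4HA1, P4HA2 and PLOD2 have long lines to the right, while LOXL1, at 92.5 and 87.9, and PLOD1, at 54.0 and 59.7, have nearly equal points.

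The prolyl 4-hydroxylase alpha subunits were both about 2-fold higher and kept the same proportion. P4HA1, the main catalytic subunit in most cells, stood at 28.2 FPKM in Ctrl and 58.3 in SOS, a 2.07-fold difference. P4HA2, the second catalytic isoform, stood at 12.131 in Ctrl and 25.023 in SOS, a 2.06-fold difference. P4HA1 was thus 2.32 times P4HA2 in the Ctrl library and 2.33 times in the SOS library. P4HA3, the third isoform, was listed at 0 in Ctrl and at 0.0330 in SOS, too low for a fold. P4HA1 lies on chromosome 10 (73007217 to 73096974, minus strand, GRCh38), P4HA2 on chromosome 5 (132191838 to 132295315, minus strand) and P4HA3 on chromosome 11 (74235801 to 74311657, minus strand). With the pseudocount of 1, the log2 ratio was 1.02 for P4HA1 and 0.99 for P4HA2, so these subunits fell just on either side of the size rule although their plain folds were almost equal. By plain fold, 4 of the 8 enzyme genes, P4HA2 included, were at least 2-fold higher in SOS, beside 7.55% of the 14074 measured genes that were above 0 in both libraries.

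P4HB, the beta subunit that P4HA1 and P4HA2 share and that also works alone as protein disulfide isomerase, differed less. It stood at 278 in Ctrl and 310.3 in SOS, 1.11-fold higher. The summed level of the alpha subunits was 40.3 in Ctrl and 83.4 in SOS. Per unit of P4HB this was 0.145 in Ctrl and 0.269 in SOS, 1.86-fold higher. This quotient is taken within each library, so the scaling between libraries does not touch it.

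The promoter sequence of P4HA1 is shown because the gene belongs to the higher set and holds the letters that HIF binds. Promoters came from RefSeq (GRCh38.p14), each with 250 bases before the gene's start and 50 from it on, and were examined for 8 of the 10 genes, all but LOXL2 and P4HA3. The motifs searched on both strands were ACGTG and GCGTG, the core letters of HIF sites, and CACGTG, which contains ACGTG. In the sequences, written from 5′ to 3′ along the gene's strand, capitals mark the matches on either strand, so a match on the other strand reads CACGT or CACGC. Of 35116 promoters of this length, 21.4% hold ACGTG, 36.5% hold GCGTG and 7.26% hold CACGTG. P4HA1 has 1 ACGTG, on the opposite strand, 86 bases before the start (chr10:73096817-73097116, minus strand).
P4HA1: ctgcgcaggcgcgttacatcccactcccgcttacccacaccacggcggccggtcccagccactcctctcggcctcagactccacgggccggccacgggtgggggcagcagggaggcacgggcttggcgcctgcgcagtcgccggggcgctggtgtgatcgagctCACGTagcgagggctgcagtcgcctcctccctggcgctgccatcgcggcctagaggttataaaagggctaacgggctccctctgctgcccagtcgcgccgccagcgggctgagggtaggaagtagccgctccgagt
The promoter listed for P4HA2 (chr5:132227042-132227341, minus strand) holds none of these letters in this window. That window lies inside the gene and not at its outer end, 132295315. Which start of a gene was used is not given in the sources used here. A match is a description of the sequence, not a site shown to be used.

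Of the lysyl hydroxylases, PLOD2 was higher in SOS and PLOD1 was nearly level. PLOD2 stood at 16.0 FPKM in Ctrl and 29.7 in SOS, a 1.86-fold difference, with a log2 ratio of 0.85, under the size rule. PLOD1, which acts on lysines within the helix, stood at 54.0 in Ctrl and 59.7 in SOS, 1.11-fold higher. PLOD3, which can also add sugars to hydroxylysine and is not among the 10 genes, stood at 85.3 and 103, 1.21-fold higher. The order of levels, PLOD3 over PLOD1 over PLOD2, was the same in both libraries. PLOD2 was 0.296 of PLOD1 in Ctrl and 0.498 in SOS, and its share of the summed level of the family was 10.3% in Ctrl and 15.4% in SOS. PLOD1 lies on chromosome 1 (11934205 to 11975538, plus strand) and PLOD2 on chromosome 3 (146069440 to 146163653, minus strand).

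The PLOD2 promoter is shown as that of the lysyl hydroxylase with the largest difference. It holds 2 ACGTG, 200 bases before the start on the opposite strand and 146 bases before it on the gene's strand, and 1 GCGTG 213 bases before the start (chr3:146161135-146161434, minus strand).
PLOD2: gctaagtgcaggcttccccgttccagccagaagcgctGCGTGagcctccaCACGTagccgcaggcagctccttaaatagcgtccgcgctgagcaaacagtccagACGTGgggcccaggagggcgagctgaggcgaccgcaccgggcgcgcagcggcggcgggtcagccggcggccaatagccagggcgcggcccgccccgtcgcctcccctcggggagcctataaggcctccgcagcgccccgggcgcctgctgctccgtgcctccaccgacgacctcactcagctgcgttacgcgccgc
The PLOD1 promoter holds 2 GCGTG and no ACGTG.

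Among the lysyl oxidases, LOX and LOXL2 were higher in SOS while LOXL1, the most abundant in both libraries, was level. LOX, the founding member of the family, stood at 17.3 FPKM in Ctrl and 52.2 in SOS, a 3.01-fold difference. Its log2 ratio of 1.54 was the 108th highest of the 14288 measured genes and the highest of the 10. LOX lies on chromosome 5 (122063195 to 122078360, minus strand). RefSeq lists 3 promoters for LOX, and the one farthest upstream is shown because it holds 4 ACGTG, 185, 98 and 42 bases before the start on the gene's strand and 116 bases before it on the opposite strand (chr5:122078210-122078509, minus strand). Of all promoters taken singly, 0.843% hold 4 or more, while this one was picked from 3 for its count. The files do not say which start was used.
LOX: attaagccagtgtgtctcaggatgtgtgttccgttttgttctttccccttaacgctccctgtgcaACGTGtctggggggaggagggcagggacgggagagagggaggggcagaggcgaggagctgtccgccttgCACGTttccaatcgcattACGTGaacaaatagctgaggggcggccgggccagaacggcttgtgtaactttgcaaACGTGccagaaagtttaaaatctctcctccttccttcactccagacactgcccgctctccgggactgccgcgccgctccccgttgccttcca
The other promoters of LOX hold 1 ACGTG and 1 GCGTG each, and their windows overlap. The LOXL1 and LOXL4 promoters hold none of the motifs, and LOXL3 has 1 GCGTG in 1 of its 2 promoters.

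LOXL2, whose protein has scavenger receptor domains ahead of the catalytic domain and which cross-links type IV collagen, stood at 19.9 in Ctrl and 45.7 in SOS, a 2.30-fold difference with a log2 ratio of 1.16. LOXL1, known for its part in elastic fibres, stood at 92.5 in Ctrl and 87.9 in SOS, 1.05-fold lower, with a log2 ratio of -0.07 that turned positive after scaling to equal summed FPKM (0.15). LOXL1 was the highest of the 5 in both libraries. LOX was below LOXL2 in Ctrl and above it in SOS, at 0.870 and 1.14 times its level. LOXL3 stood at 2.005 and 2.323, and LOXL4 at 0.0460 in Ctrl and 0 in SOS. LOXL1 lies on chromosome 15 (73925989 to 73952137, plus strand), LOXL2 on chromosome 8 (23297189 to 23425328, minus strand), LOXL3 on chromosome 2 (74532414 to 74555690, minus strand) and LOXL4 on chromosome 10 (98247690 to 98268250, minus strand).

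The make-up of the lysyl oxidase family differed between the libraries, and that of the prolyl hydroxylase subunits did not. The shares take the values to be scaled to gene length. LOXL1 made up 70.2% of the summed lysyl oxidase level in Ctrl and 46.7% in SOS. LOX made up 13.1% in Ctrl and 27.7% in SOS, and LOXL2 15.1% and 24.3%. Relative to LOXL1, LOX was 0.187 in Ctrl and 0.594 in SOS, 3.17-fold higher. P4HA1 made up 69.9% of the alpha subunits in both libraries. The family sums were 132 and 188 for the lysyl oxidases, 1.43-fold higher in SOS, and 155 and 192 for the 3 lysyl hydroxylases, 1.24-fold higher.

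**Figure D2:**
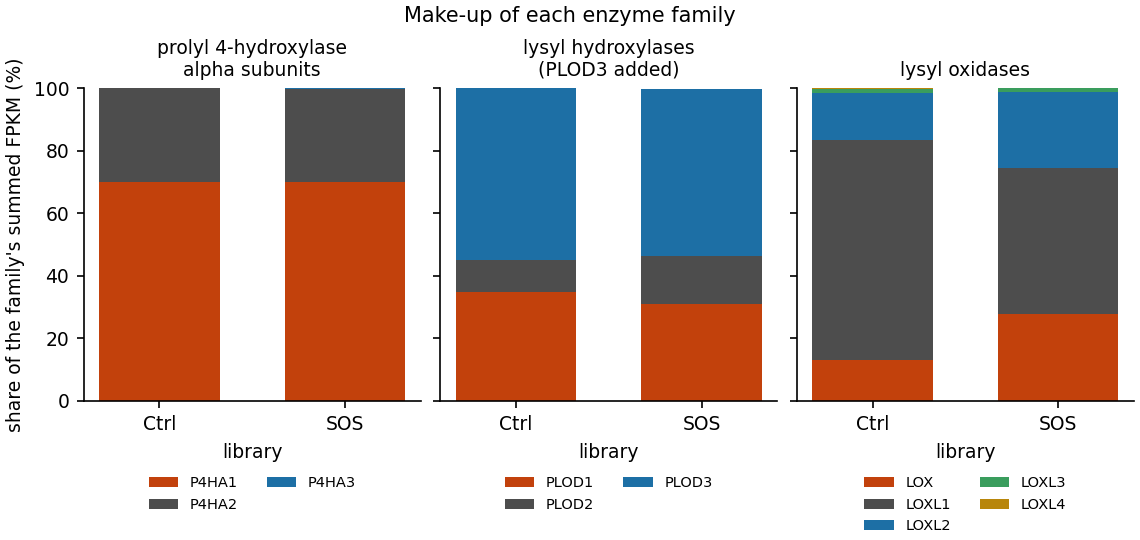
Share of each gene in the summed FPKM of its family, in percent, in the Ctrl and the SOS library, 1 library each. The prolyl 4-hydroxylase bars look alike at 69.9% P4HA1 in both, while LOXL1 takes 70.2% of the lysyl oxidase bar in Ctrl and 46.7% in SOS.

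The authors' deposited table marks 2 of the 10 genes as significant, LOX and LOXL2, with log2 ratios of -1.38 and -1.05 in the direction of Ctrl over SOS. Of the genes that reached 1 FPKM in at least 1 of the libraries, 3.63% carry the mark with the SOS column higher. The mark fell on every named entry whose log2 ratio was 1 or more in size and whose adjusted p was under 0.001, and on no other. In the authors' deposited table P4HA2, at -0.999, missed the mark, as did P4HA1 at -0.90 and PLOD2 at -0.73. LOXL1 has a p-value of 0 in the authors' deposited table with a log2 ratio of 0.02. The p-values in the authors' deposited table are highest away from a ratio of 0, since the 128 genes at 5 FPKM or more in both libraries with a p of at least 0.9 had a median log2 ratio of 0.315. What test was used is not given in the sources used here, and with 1 library per group it cannot reflect the spread between cultures.

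The authors' ratio, from the same 2 libraries and so no separate check, again put LOX, LOXL2, P4HA1, P4HA2 and PLOD2 highest among the measured enzyme genes. It was turned to SOS over Ctrl, and its median offset of 0.152 against the FPKM was taken off. From the authors' deposited table, so treated, LOX came to 1.53, LOXL2 to 1.20, P4HA2 to 1.15, P4HA1 to 1.05 and PLOD2 to 0.88. On the same footing LOXL3 came to 0.47, PLOD1 to 0.20 and LOXL1 to 0.13. LOXL1 was thus below 0 by FPKM and above 0 by this ratio. Across the scalings shown, LOXL1 lay between -0.07 and 0.30 and LOX between 1.53 and 1.76.

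**Figure D3:**
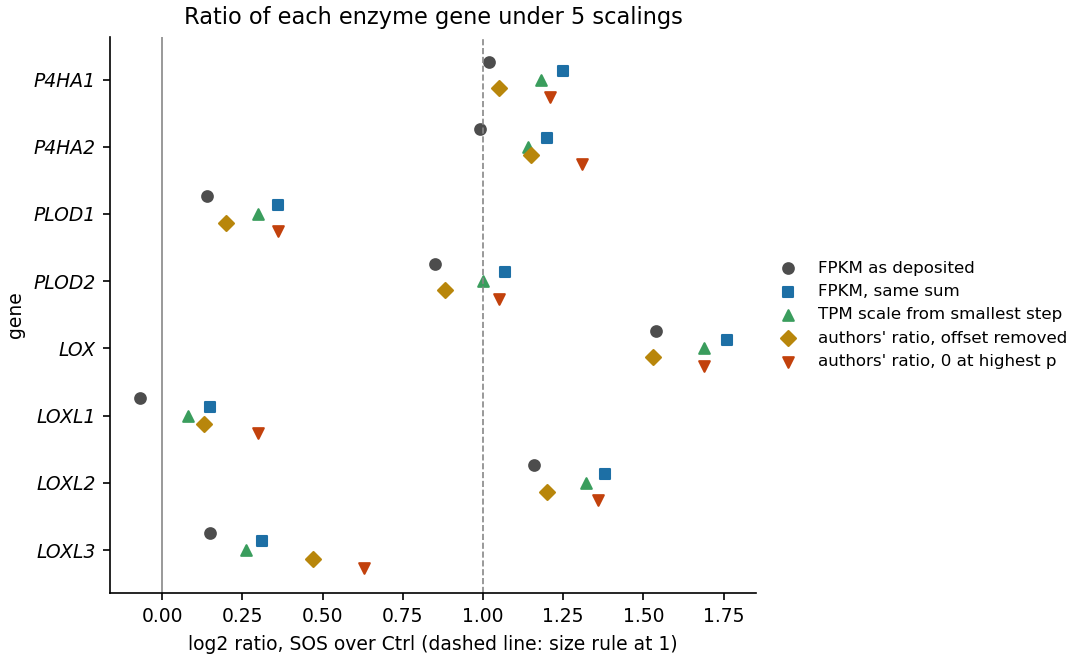
Log2 ratio of SOS over Ctrl for the 8 measured enzyme genes under 5 scalings: FPKM as deposited, FPKM scaled to the same sum, a TPM scale read from the smallest step of the values, and the authors' ratio with its offset removed or with 0 where their p-value is highest. The FPKM points carry a pseudocount of 1, the solid line is 0 and the dashed line is the size rule at 1. LOX and LOXL2 lie beyond the dashed line in all 5, and LOXL1 lies on both sides of 0.

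Exons of neighbouring genes overlap several enzyme genes in GENCODE release 29, and the sources used here do not give whether the libraries kept strand. LOXL3 shares 625 exonic bases with HTRA2 and 216 with DOK1, both on the opposite strand. HTRA2 stood at 33.7 and 32.4 FPKM and DOK1 at 12.2 and 11.6, all above LOXL3, so the level of LOXL3 is uncertain. P4HA2 shares 548 bases with its antisense transcript P4HA2-AS1, which was low at 0.293 and 0.837. LOXL1 shares 335 bases with LOXL1-AS1, at 16.7 and 18.2. LOX shares 138 bases with SRFBP1, at 5.47 and 5.81. The partners of LOX and LOXL1 were each at a lower level than the gene itself in both libraries. P4HA3, itself near 0, shares 166 bases with PPME1, at 26.4 and 22.1, so its level is uncertain too. LOXL2 shares 120 bases with ENTPD4 on the same strand, at 11.3 and 14.4.

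Other genes of collagen maturation had a median ratio of 0.19, beside 0.92 for the enzyme genes and -0.05 for all genes. Of 31 such partners 28 were measured, 21 of them above 0 and 7 below, beside 45.8% of all tested genes above 0. None passed the size rule in either direction, although EFEMP2 was 2.78-fold higher by plain FPKM. BMP1, the protease that removes the C-terminal propeptide of procollagen and also activates LOX, stood at 21.0 and 41.0, 1.95-fold higher. By the authors' deposited table, turned and with the offset removed, BMP1 came to 0.54. EFEMP2, fibulin-4, which brings LOX to elastic fibres, stood at 1.03 and 2.88, with 0.93 on the pseudocount scale and 2.32 from the authors' deposited table. P3H2, a prolyl 3-hydroxylase, stood at 12.9 and 21.0. MIA2, which helps export large cargo from the endoplasmic reticulum, stood at 4.71 and 7.87, with any entry under its older symbol CTAGE5 counted in. These 4 had the highest ratios among the partners. At the other end, COLGALT1, which adds galactose to hydroxylysine, stood at 100.2 and 84.8. The copper importer SLC31A1 was at 16.9 and 14.6, FKBP7, a prolyl isomerase of the endoplasmic reticulum, at 18.0 and 15.7, and P3H3 at 39.9 and 35.2.

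The substrates of these enzymes were mostly higher in SOS as well. Of 19 collagen chains and elastin 12 were measured, and 11 of the 12 were above 0, with a median of 0.57, beside 45.8% above 0 and a median of -0.05 for all tested genes. COL11A1, a minor fibrillar chain, was at 30.1 in Ctrl and 86.7 in SOS, 2.88-fold higher, and COL5A1, which sets fibril diameter, at 22.2 and 51.2, 2.31-fold higher. These were the 2 of 12 past the size rule, beside 3.74% of all genes, and none was lower by as much. COL1A1 and COL1A2, the chains of type I collagen, stood at 209.7 and 11.9 in Ctrl and at 379 and 18.8 in SOS. At the low end were COL12A1 at 3.44 and 2.95, COL18A1 at 5.18 and 6.21, COL7A1 at 1.996 and 2.791, and COL3A1 at 331 and 437. All of these but COL12A1 were higher in SOS. Type IV chains COL4A1 and COL4A2 were at most 0.0250 in either library, and COL4A6 was at 0.119 in Ctrl and 0.0660 in SOS. The type IV chain COL4A5 did pass the minimum, with a log2 ratio of 0.58. Elastin was at 0.119 and 0.566. Set against the sum of these substrates, the alpha subunits were 0.0543 in Ctrl and 0.0709 in SOS. The lysyl oxidases were 0.177 in Ctrl and 0.160 in SOS, so their sum differed by less than that of the substrates.

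Hypoxia genes are given beside the enzymes because several enzyme genes are known HIF targets. Of 25 such genes 22 were measured, 17 of them above 0, with a median of 0.39, beside 45.8% above 0 and a median of -0.05 for all tested genes. By the size rule 5 of the 22 were higher, beside 3.74% of all genes, and none was lower. The highest were CA9, a carbonic anhydrase, at 2.93 and 32.4, NDUFA4L2, a mitochondrial protein, at 23.3 and 174, NDRG1, a stress-responsive gene, at 4.24 and 33.8, and VEGFA, an angiogenic growth factor, at 42.1 and 124. The lowest were the HIF prolyl hydroxylase EGLN2 at 20.8 and 13.5, the hexokinase HK2 at 25.5 and 22.3, VHL, which marks HIF for breakdown, at 22.5 and 20.6, and the glucose transporter SLC2A1 at 63.0 and 58.2. Oxygen was not measured, and a part of HIF in the levels of the enzymes was not tested.

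**Figure D4:**
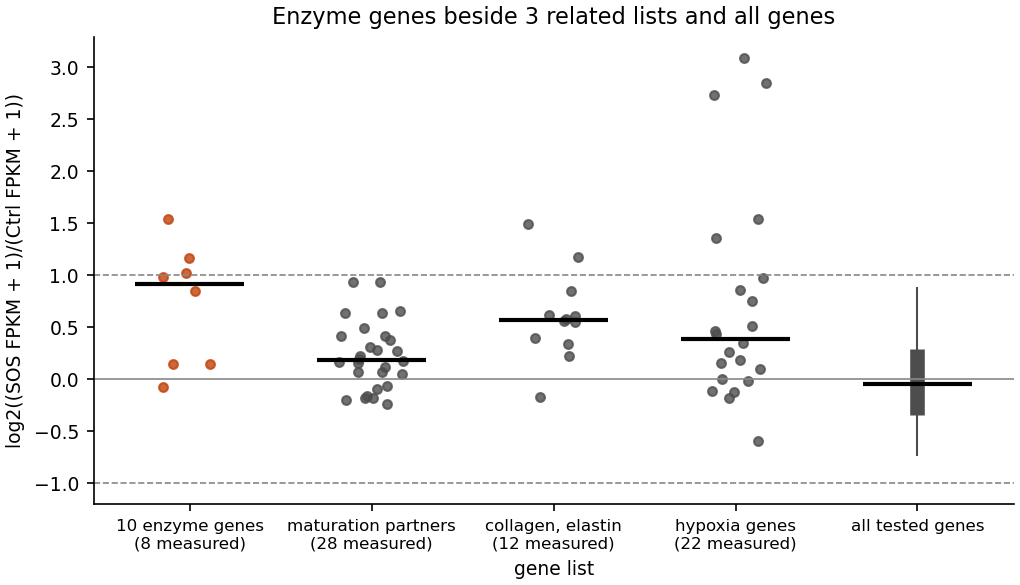
Log2((SOS FPKM + 1)/(Ctrl FPKM + 1)) of each measured gene (points), with the median of each list as a black line. The lists are the 10 enzyme genes, 28 maturation partners, 12 collagen genes and 22 hypoxia genes. Elastin was below the minimum and is not among the points. The last column shows all 14288 genes, with the thin line from the 5th to the 95th percentile (-0.74 to 0.89) and the thick line from the 25th to the 75th. Of the enzyme points 3 lie near 0 and the other 5 between 0.85 and 1.54.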

How the data were processed

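RNA sequencing was done on 2 libraries of HGC-27 cells, Ctrl and SOS. Per the file headers, the deposited table has an FPKM column per library, plus log2 ratio, p-value and adjusted p-value columns made by the authors. The tools HISAT2, Cufflinks and RSEM and the build GRCh38.p10 are named, per the submitters' processing notes, with neither version nor role. Of 58645 entries, 412 had neither name nor values and 27 had names turned into dates; these were left out, and FPKM of entries with the same name were summed. FPKM under 1 were whole multiples of 1 small step per library in 99.7% of Ctrl and 99.9% of SOS values (tolerance 0.00051). Rounded TPM would give such a step, and so would read counts scaled to the library but not to gene length. These and other sources of it were not tested. The log2 shift between libraries was 0.16 from the step and 0.23 from equal sums, so the TPM reading is uncertain. That the values are scaled to gene length rests on the column names. No read counts were recovered. The depth of the libraries is therefore unknown, and no counting interval is given.

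Ratios were computed in Python 3.11.15 with pandas 2.3.3, with a pseudocount of 1, a minimum of 1 FPKM in either library and a size rule of 1 on the log2 scale. All 10 genes are described, and from each other list the 4 highest and the 4 lowest measured genes are named. THY1, DCN and other markers, the type IV chains, elastin and the overlapping genes were named outside this rule, after their values were seen. The 10 genes and the lists were chosen with earlier results of these data known. Positions and overlaps come from GENCODE release 29 on GRCh38, which may differ from the authors' annotation. Alternatives concerned the pseudocount, minimum, scaling, the authors' ratio and repeated names.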

Additional observations from a re-analysis of the deposited data

How the results depend on the processing

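Under 10 alternatives, the higher direction of LOX, LOXL2, P4HA1, P4HA2, PLOD1, PLOD2 and LOXL3 did not turn where they gave a value. LOX (1.36 to 1.76) and LOXL2 (1.03 to 1.38) stayed past the size rule in all 10. P4HA1 fell below it with a pseudocount of 5 (0.93), P4HA2 passed it in 5 and PLOD2 in 3. LOXL1 turned from -0.07 to 0.15 with summed FPKM made equal, to 0.13 by the authors' ratio with its offset removed, to 0.08 on the TPM scale and to 0.30 by the authors' ratio with 0 at the highest p. The last 2 were chosen after seeing the data. The 3 enzyme genes past the size rule became 2 with a pseudocount of 5 (beside 0.693% of all genes) and 4 with a pseudocount of 0.1 (7.66%). The count was also 4 by the authors' ratio with its offset removed (6.59%). It was 5 with the same sum (6.03%), 5 on the TPM scale (5.28%) and 5 with 0 at the highest p (9.30%). None was lower by this size in any. The background moved too. With the same sum, 862 genes were higher and 162 lower, beside 535 and 235 as deposited (84.2% and 69.5% higher), on the TPM scale 755 and 171 (81.5%), and with 0 at the highest p 1306 and 200 (86.7%). The median of all genes moved from -0.05 to 0.15 with the same sum. Relative to it the enzyme median was 0.97 as deposited and 0.99 with the same sum. The enzyme median of 0.92 was 0.96 with a pseudocount of 0.1, 0.77 with 5, 0.99 with a minimum of 5 FPKM, 0.50 with no minimum (which adds LOXL4 and P4HA3), 1.14 with the same sum, 0.91 with the same median, 0.97 by the authors' ratio, 1.07 on the TPM scale and 1.13 with 0 at the highest p. Partners past the size rule went from 0 to 1 or 2 in 5 alternatives, beside 5.28% to 9.30% of all genes. Hypoxia genes went from 5 to 8 by the authors' ratio in both forms (6.59% with the offset removed, 9.30% with 0 at the highest p). They went to 4 with a pseudocount of 5 (0.693%) and to 6 with a pseudocount of 0.1 (7.66%). With the same sum (6.03%) and on the TPM scale (5.28%) 7 hypoxia genes were past it. Collagen genes went from 2 to 4 with 0 at the highest p (9.30%). With the same sum (6.03%) and on the TPM scale (5.28%) their count was 3. Leaving out a replicate was not possible with 1 library per group. No paired analysis was possible because each group had 1 library.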

Other observations

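HBA1, an alpha globin gene, stood at 224 FPKM in Ctrl and 188 in SOS and its near-identical copy HBA2 at 34.2 and 13.8, while the beta globin gene HBB was listed at 0 in both libraries. The split between HBA1 and HBA2 is uncertain.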
